A study of Mus musculus with 4 samples.

Results

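Natural killer (NK) cells of mouse spleen were sorted by surface DNAM-1, and for each gene the DNAM-1+ to DNAM-1- ratio of its RNA in leukaemic spleen was set against the same ratio in normal spleen. For each gene, log2 of the DNAM-1+ to DNAM-1- ratio was taken in each spleen after adding 1 to both FPKM values (fragments per kilobase of transcript, scaled to library depth), and the normal value was subtracted from the leukaemic one. This ratio difference is positive where DNAM-1+ cells had relatively more of the RNA in leukaemic spleen than in normal spleen, and negative where they had relatively less. Where a library does not list a gene, its value was set to 0. The genes described are the 8658 protein-coding genes with 5 FPKM or more in at least 1 library, of 17723 genes listed in any library.

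There were 4 libraries of total RNA, 1 for each combination of subset and spleen, all from C57BL/6J mice. The age given for every group is that of the recipient mice, 6 to 8 weeks. The normal spleen groups (DNAM-1+ and DNAM-1-) were taken on day 0, and the AML spleen groups (DNAM-1+ and DNAM-1-) on day 17 after transfer of GFP+ MLL-AF9 leukaemia cells into mice that were not irradiated. The sources used here do not give the other sort gates, the purity of the sort or how many mice went into a library. With 1 library a group the ratio difference has 0 residual degrees of freedom, so no test was possible and no value below has a replicate check. Every set of 4 FPKM values below gives the pair of normal spleen first and the pair of AML spleen after it, and within a pair the DNAM-1+ library before the DNAM-1- library.

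DNAM-1, encoded by Cd226, is an activating receptor that binds nectin and nectin-like ligands on target cells. Engagement of activating receptors on NK cells is known to switch on immediate early transcription factors such as AP-1 and EGR proteins and NF-kappaB within a short time, and with them chemokine genes such as Ccl3, Ccl4 and Xcl1, whose products recruit other leukocytes. NK cells also divide in the spleen, and Cdk1 encodes the kinase that drives cells into mitosis together with cyclin B.

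The sort and the cell type show in the marker genes. Cd226 was at 38.6, 0.45, 36.1 and 0.58 FPKM, high in both DNAM-1+ libraries and near 0 in both DNAM-1- libraries, and its ratio difference was -0.22 with a 95% counting interval of -1.01 to 0.57. Ncr1, the NKp46 gene, was at 573, 383, 597 and 423 FPKM, and Klrb1c, the NK1.1 gene, at 369.7, 318, 422 and 379 FPKM. Both NK markers were abundant in every library, with ratio differences of -0.09 for Ncr1 and -0.06 for Klrb1c. Counting intervals were computed from a depth of 8950000 to 9300000 fragments a library, estimated from the value of single reads on microRNA genes. They cover counting error only and say nothing of the spread between mice.

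The libraries also held RNA of other cell types. The summed B cell markers (13 of 15 found) were at 241, 1174, 268 and 1130 FPKM, the monocyte markers (12 of 12) at 649, 1290, 739 and 1257 FPKM, and the macrophage markers (13 of 13) at 69.1, 446, 77.6 and 365 FPKM. NK cells are known to express some of the monocyte markers too, such as Itgam, Ly6c2 and Ccr2. All 3 sums were highest in the DNAM-1- libraries, and their ratio differences were 0.21, 0.22 and 0.46. Most of the macrophage sum was Apoe, at 38.8, 334, 43.0 and 266 FPKM, with a ratio difference of 0.47. The plasma cell sum was at 74.3, 214, 80.8 and 323 FPKM, with a ratio difference of -0.48, and Jchain alone held 12.6, 103, 18.2 and 206 FPKM of it. The T cell sum was at 141, 77.9, 143 and 80.7 FPKM, with a ratio difference of -0.02. The leukaemia and myeloid progenitor markers (15 of 15) summed to 44.6, 35.8, 53.3 and 39.6 FPKM, with a ratio difference of 0.11, and 7 of the 15 stayed under 1 FPKM in every library. Kit, which early NK cells also express, was at 17.9, 7.86, 25.3 and 9.78 FPKM, and Myb at 16.1, 14.9, 12.4 and 9.97 FPKM. Hoxa9 was low, at 0.04, 0.04, 0.32 and 0.18 FPKM, with both AML values above both normal ones. The granule genes were likewise low but higher in both AML libraries than in both normal ones, with Mpo at 0.25, 0.26, 1.58 and 2.29 FPKM and Ctsg at 0.11, 0.11, 1.1 and 1.68 FPKM. The part of leukaemia cell RNA in the results below was not tested. In bulk RNA, fewer cells of a type and less RNA per cell cannot be told apart.

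**Figure D1:**
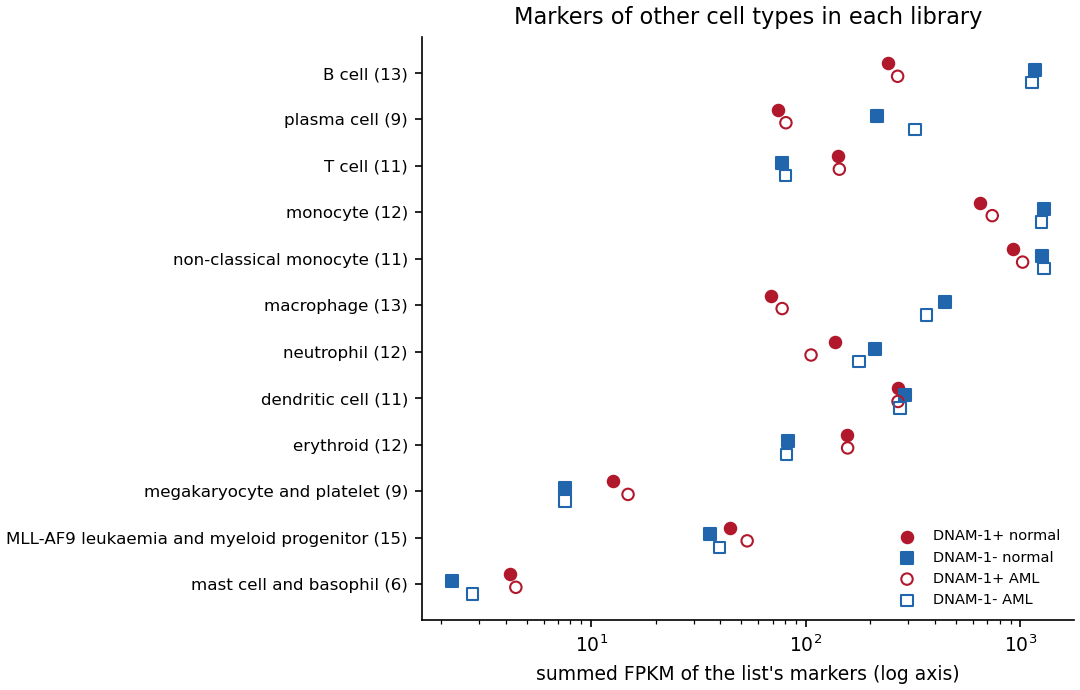
Summed FPKM (log axis) of the markers of 12 other cell types, with the number of markers found in brackets, circles for DNAM-1+, squares for DNAM-1-, filled for normal and open for AML spleen. B cell, monocyte and macrophage sums were higher in both DNAM-1- libraries than in both DNAM-1+ libraries, and T cell sums were lower.

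The DNAM-1 ratios of most genes were close in normal and leukaemic spleen. The median ratio difference over the 8658 genes was 0.01, with an SD of 0.212 across genes, and 95% of genes lay between -0.38 and 0.48. The ratio difference was 1 or more in 12 genes (0.139%) and -1 or less in 5 genes (0.0578%). At the smaller size of 0.5, 192 genes (2.22%) lay at or above 0.5 and 87 genes (1.00%) at or below -0.5. The SD was 0.155 in the 3514 genes at 20 FPKM or more in all 4 libraries and 0.268 in the 1861 genes that stayed under 10 FPKM. The counting interval missed 0 in 1249 genes (14.4%), 665 of them above 0 and 584 below, and the median counting interval reached 0.292 to either side.

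**Figure D2:**
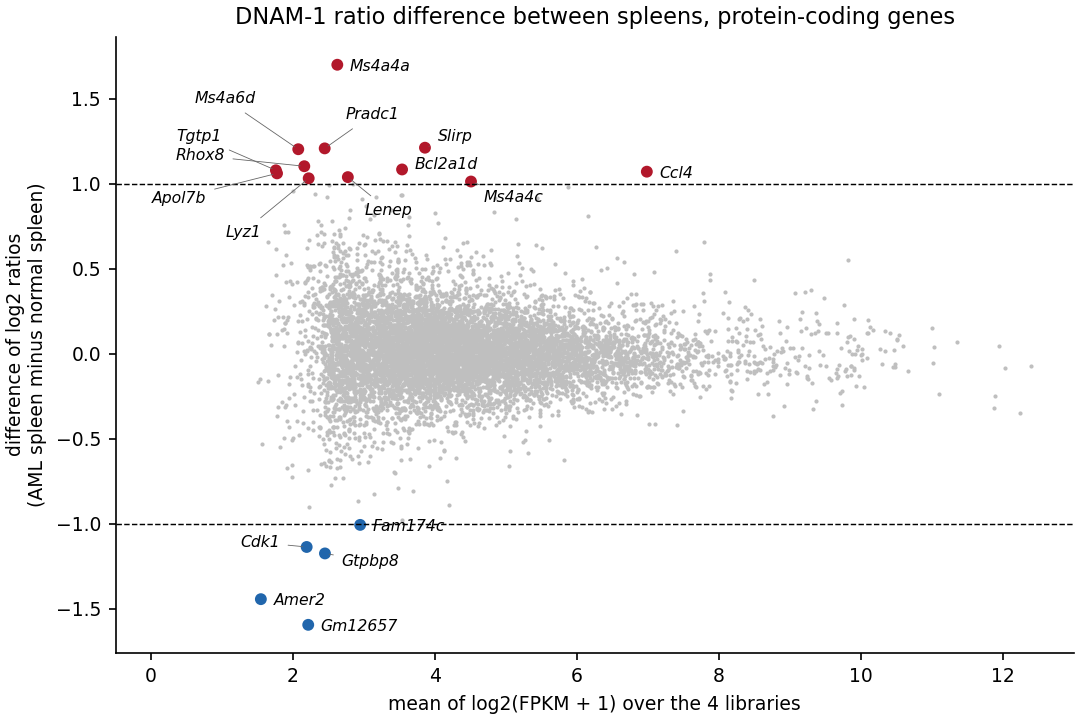
Ratio difference (AML spleen minus normal spleen, log2 scale) of each protein-coding gene against its mean log2(FPKM + 1) over the 4 libraries. Coloured points are the 12 genes at 1 or more and the 5 genes at -1 or less, and of these only Ccl4 lies among highly expressed genes.

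A ratio difference can arise in several ways, which were counted from the signs and sizes of the DNAM-1 ratios. Of the 12 genes at 1 or more, the DNAM-1 ratio had opposite signs in the 2 spleens in 5, was nearer 0 in AML spleen in 5 and was farther from 0 there in 2. Of the 5 genes at -1 or less, the corresponding counts were 3, 2 and 0. Among the 192 genes at 0.5 or more, 83 had opposite signs, 97 were nearer 0 in AML spleen and 12 were farther. In 127 of these 192 genes the highest of the 4 values was in DNAM-1- cells of normal spleen, against 23.8% of all 8658 genes, a position that a high ratio difference itself makes more frequent. Among the 87 genes at -0.5 or less, 62 were highest in normal DNAM-1+ cells and 24 in DNAM-1- cells of AML spleen, against 28.1% and 21.3% of all genes, with the same reservation.

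Chemokine genes were placed mostly above 0, led by Ccl4. Ccl4 (NCBI Gene 20303), which encodes the chemokine MIP-1 beta, was at 81.0, 151, 152 and 134 FPKM. It was thus lowest in normal DNAM-1+ cells and of similar level in the other 3 libraries, where the DNAM-1+ AML value was the highest. Its ratio difference was 1.07, with a counting interval of 0.86 to 1.28, and it was the highest among genes at 20 FPKM or more in all 4 libraries. Ccl3, the neighbouring gene for MIP-1 alpha, was at 164, 248.7, 256 and 287 FPKM, also lowest in normal DNAM-1+ cells, and its ratio difference was 0.44 (counting interval 0.29 to 0.58). Xcl1, whose product attracts cross-presenting dendritic cells, was at 284, 167, 382 and 162 FPKM. Here the higher value was in the DNAM-1+ cells of both spleens, and the ratio difference was 0.47 (counting interval 0.29 to 0.65).

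Of 14 listed chemokine genes, 6 passed the expression floor (Ccl3, Ccl4, Ccl5, Ccl6, Ccl9 and Xcl1), 5 of them above 0 and 1 below. Their median ratio difference was 0.39 beside 0.01 over all 8658 genes. This list and those below were chosen with earlier results of these data known, so their counts and medians are descriptions only. Ccl6 and Ccl9, known from myeloid cells, had ratio differences of 0.35 (counting interval -0.146 to 0.845) and 0.09 (-0.26 to 0.44). Both intervals included 0. Ccl5, the most abundant of the 6, was at 5390, 4682, 6089 and 5552 FPKM, with a ratio difference of -0.07 (counting interval -0.11 to -0.03). The cytokine genes held 7 members above the floor of 14 listed, 5 above 0 and 2 below, with a median of 0.12. Ifng, the interferon gamma gene, was at 64.2, 70.9, 81.9 and 70.0 FPKM, highest in DNAM-1+ cells of AML spleen, with a ratio difference of 0.36 (counting interval 0.16 to 0.57). Tnfsf14, which encodes the ligand LIGHT, was at 24.9, 18.9, 28.3 and 14.5 FPKM, with a ratio difference of 0.54 (counting interval 0.25 to 0.84). Il1b, a myeloid cytokine gene, was at 2.52, 15.9, 4.12 and 14.3 FPKM, with a ratio difference of 0.69. The part of the monocyte and macrophage RNA in these values was not tested.

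Immediate early genes lay above 0 nearly as a whole list. The list was chosen with earlier results of these data known, so its counts are descriptions and no independent support. Of 37 listed genes, 34 passed the floor, 33 of them above 0 and 1 below, and 9 lay at 0.5 or more, where 2.22% of all genes lay. Their median ratio difference was 0.37 beside 0.01 over all 8658 genes, of which 52.0% lay above 0. The counting interval missed 0 in 26 of the 34, on the upper side in 25, and in 14.4% of all genes. In 30 of the 34 genes the lowest of the 4 values was in DNAM-1+ cells of normal spleen, the position that 28.0% of all 8658 genes had. Ratio differences above 0 themselves make this position more frequent.

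Among the AP-1 subunits, Fos (14281) was at 18.3, 49.9, 43.8 and 74.9 FPKM, with a ratio difference of 0.64 (counting interval 0.43 to 0.85). Fosb was at 11.1, 27.2, 20.4 and 30.6 FPKM, with a ratio difference of 0.66 (0.45 to 0.87), and Jun at 66.4, 116, 92.0 and 108 FPKM, with 0.56 (0.45 to 0.67). All 3 were lowest in normal DNAM-1+ cells and lower in DNAM-1+ than in DNAM-1- cells of both spleens, by less in AML spleen. Junb, the most abundant AP-1 gene, was at 525, 608, 735 and 656 FPKM, so that the DNAM-1+ value was the lower of the pair in normal spleen and the higher in AML spleen, and its ratio difference was 0.37 (0.32 to 0.43). Jund had a ratio difference of 0.14. Atf3, a stress-induced factor that pairs with Jun proteins, was at 5.21, 16.7, 5.22 and 10.9 FPKM, with a ratio difference of 0.57. In Atf3 the DNAM-1+ values were equal in the 2 spleens to within 0.1 FPKM, and the DNAM-1- values differed.

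The zinc finger factors of the EGR family, induced through MAP kinase and calcium signals, were placed likewise. Egr3 was at 7.4, 14, 12.1 and 13.4 FPKM, and its ratio difference of 0.69 (counting interval 0.38 to 1.005) was the highest of the list. Egr2, at 4.72, 5.58, 6.91 and 5.04 FPKM, had a ratio difference of 0.59, but at this low level its counting interval, -0.14 to 1.32, included 0. Egr1 was at 27.5, 46.8, 38.7 and 49.3 FPKM, with a ratio difference of 0.40. The orphan nuclear receptor genes, known as targets of antigen and activating receptor signals, followed: Nr4a1, at 65.1, 167, 72.5 and 127 FPKM, had a ratio difference of 0.54, Nr4a2 of 0.49 and Nr4a3 of 0.50. Nr4a1 was also on the list of non-classical monocyte markers. Its DNAM-1+ value was higher and its DNAM-1- value lower in AML than in normal spleen. Nr4a3 differed from the other nuclear receptors in that its DNAM-1+ value was the higher of the pair in both spleens (19.5, 16.7, 28.7 and 17.1 FPKM).

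The list also holds kinase, phosphatase and RNA decay genes. Sik1, a kinase gene induced by cyclic AMP, was at 10.6, 25.6, 17.3 and 26.5 FPKM, with a ratio difference of 0.61 (counting interval 0.41 to 0.81). The MAP kinase phosphatase genes Dusp1, Dusp2, Dusp5 and Dusp6 had ratio differences of 0.31, 0.26, 0.48 and 0.30 (the counting interval of Dusp6, -0.002 to 0.60, included 0), and Zfp36, which encodes the mRNA-destabilising protein tristetraprolin, of 0.36. Klf2, a factor of lymphocyte quiescence and recirculation, was the gene below 0, at 447, 489, 505 and 599 FPKM, with a ratio difference of -0.12 (counting interval -0.18 to -0.06). Myc and Cd69 were near 0, at 0.04 and 0.07. Beside these values, the monocyte and macrophage marker sums had ratio differences of 0.22 and 0.46. The monocyte sum includes abundant genes that NK cells also express. Over the single markers above the floor the medians were 0.30 and 0.38. The part of monocyte and macrophage RNA in the result was not tested.

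Genes of the NF-kappaB response were placed above 0 to a smaller extent. Of 23 listed genes, 21 passed the floor, 18 above 0 and 3 below, with a median of 0.18, and 52.0% of all genes lay above 0. At 0.5 or more were 4 genes (Bcl2a1d, Ccr7, Cd83 and Bcl2a1b), where 2.22% of all genes lay. Tnfaip3, which encodes the feedback inhibitor A20, was at 67.1, 86.6, 87.1 and 79.6 FPKM, with a ratio difference of 0.49 (counting interval 0.36 to 0.63). The inhibitor genes Nfkbid and Nfkbiz had ratio differences of 0.48 and 0.38, and Nfkbia of 0.02. The subunit genes were close to 0, with 0.09 for Nfkb1, 0.10 for Nfkb2, 0.08 for Rel, 0.09 for Relb and -0.08 for Rela. Bcl2a1d, a BCL2 family survival gene, was at 5.39, 16.4, 10.3 and 13.5 FPKM, with a ratio difference of 1.08 (counting interval 0.49 to 1.68). It has near-identical copies that can share reads, so its own value is uncertain: Bcl2a1b was at 0.53, Bcl2a1a at -0.40, and the sum of the 3 copies at 0.66. Cd83 and Ccr7, which B cells and dendritic cells also express, both had a ratio difference of 0.71. Tnip1, whose product binds A20, was lowest of the list, at -0.25.

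**Figure D3:**
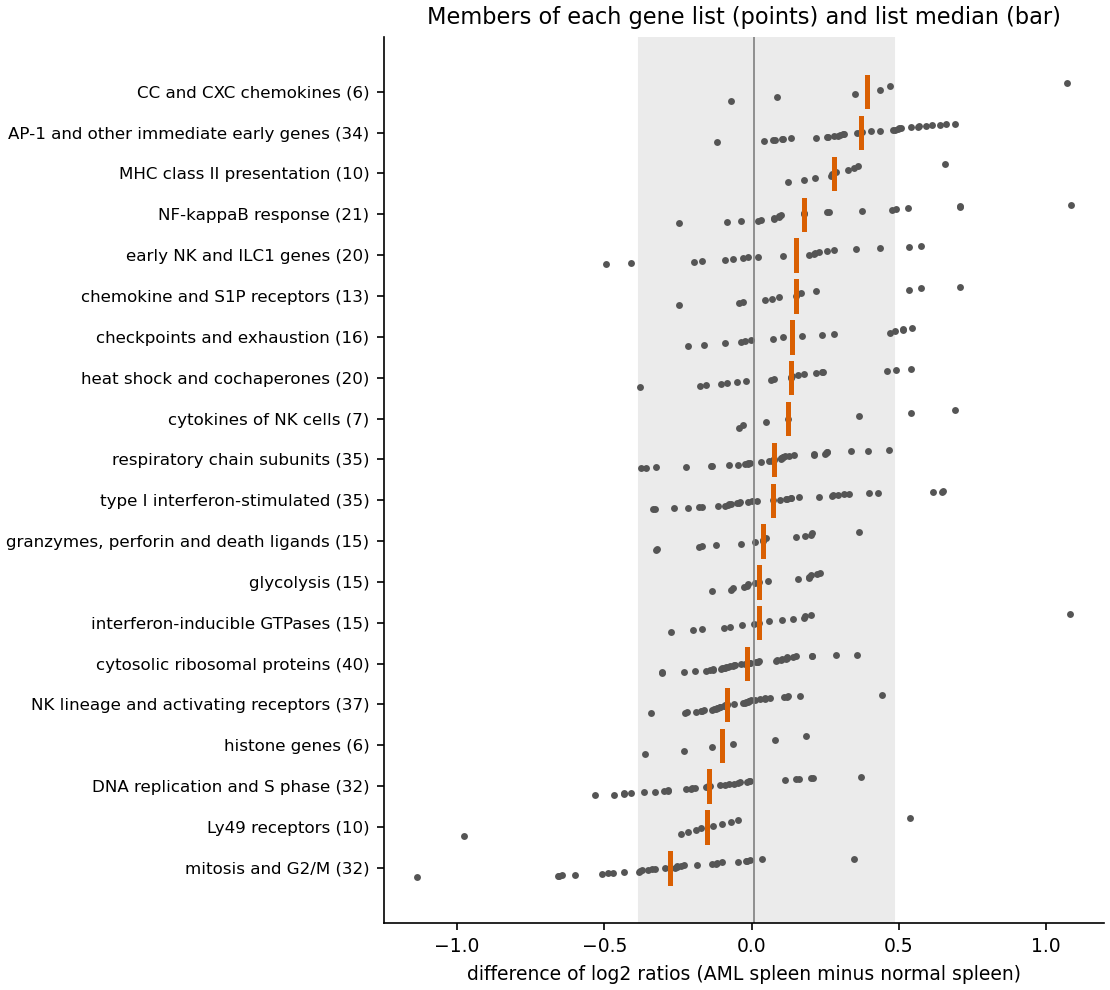
Ratio difference of each member of the 20 pathway lists (points, with the number of members in brackets) and the list median (orange bar), over a grey band for the central 95% of all 8658 genes and a line at their median. Immediate early genes and MHC class II genes lie mostly to the right of the line and mitosis genes to the left, with medians of 0.37, 0.28 and -0.28.

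Genes of mitosis lay below 0, led by Cdk1. This list too was chosen with earlier results of these data known, so its counts are descriptions only. Of 36 listed genes, 32 passed the floor, 30 of them below 0 and 2 above, with a median ratio difference of -0.28. At -0.5 or less were 6 genes, where 1.00% of all genes lay, and the counting interval missed 0 in 11 genes, all below 0, beside 14.4% of all genes. In 31 of the 32 genes the highest of the 4 values was in DNAM-1+ cells of normal spleen, the position that 28.1% of all 8658 genes had. Ratio differences below 0 themselves make this position more frequent. In 29 genes the lowest value was in DNAM-1- cells of AML spleen, the position of 24.8% of all genes. In 30 of the 32 the DNAM-1 ratio was nearer 0 in AML spleen, and in none did its sign differ between the 2 spleens. The log2 ratio was above 0 in normal spleen throughout the list, so the count nearer 0 restates the ratio differences below 0.

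Cdk1 (12534) was at 8.01, 1.61, 4.40 and 2.44 FPKM, with both its highest (DNAM-1+) and its lowest (DNAM-1-) value in normal spleen. Its ratio difference was -1.14, with a counting interval of -1.85 to -0.43, and by the estimated depth the lowest value rests on about 18 reads. At these low levels the size depended on the pseudocount, with a ratio difference of -1.42 at 0.1 FPKM and -0.64 at 5 FPKM. Its partner Ccnb1, the cyclin B1 gene, was at 5.57, 2.04, 3.08 and 1.97 FPKM, with a ratio difference of -0.65 (-1.22 to -0.09). Ckap2l, a gene of the mitotic spindle, was at 9.23, 3.09, 4.99 and 2.78 FPKM, with -0.66 (-1.07 to -0.24). Both had their DNAM-1- values close together in the 2 spleens and their DNAM-1+ value lower in AML spleen. Aurka, the kinase of the spindle poles, was at 7.53, 3.39, 4.35 and 3.30 FPKM, with -0.64, and the kinesin genes Kif20a, Kif2c and Kif11, motors of the spindle, had ratio differences of -0.60, -0.51 and -0.47.

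Promoter sequence is shown for Cdk1, Ckap2l and Ccnb1, the 3 lowest ratio differences of the mitosis list, because mitotic genes are known to share a short element, the cell cycle homology region, and CCAAT boxes near their start. The lines give the 250 bases before the RefSeq start of each gene in GRCm38.p6, 5′ to 3′ on the gene's strand, at chr10:69352913-69353162 (Cdk1), chr2:129297213-129297462 (Ckap2l) and chr13:100786487-100786736 (Ccnb1), all on the minus strand. Capitals mark matches on either strand to TTTGAA or TTCGAA, used for the cell cycle homology region, and to CCAAT.
Cdk1: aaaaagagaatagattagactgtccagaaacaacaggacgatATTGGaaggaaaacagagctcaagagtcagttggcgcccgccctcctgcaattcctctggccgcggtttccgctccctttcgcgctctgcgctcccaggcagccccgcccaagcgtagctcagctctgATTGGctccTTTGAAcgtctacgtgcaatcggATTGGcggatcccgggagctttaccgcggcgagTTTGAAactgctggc
Ckap2l: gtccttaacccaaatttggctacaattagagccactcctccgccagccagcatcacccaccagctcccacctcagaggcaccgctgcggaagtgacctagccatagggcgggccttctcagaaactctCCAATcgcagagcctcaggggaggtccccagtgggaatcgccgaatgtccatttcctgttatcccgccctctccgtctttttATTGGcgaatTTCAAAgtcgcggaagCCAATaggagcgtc
Ccnb1: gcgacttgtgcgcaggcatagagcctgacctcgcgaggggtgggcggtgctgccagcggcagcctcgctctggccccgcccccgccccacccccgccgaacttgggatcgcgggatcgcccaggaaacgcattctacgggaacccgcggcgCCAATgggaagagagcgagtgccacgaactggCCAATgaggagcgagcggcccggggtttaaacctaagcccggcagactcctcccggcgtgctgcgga
Cdk1 held TTTGAA starting 71 and 15 bases before the gene start and 3 CCAAT matches, Ckap2l held 1 TTTGAA match and 3 CCAAT matches, and Ccnb1 held 2 CCAAT matches. CCAAT was in 22 of 28 windows of the mitosis list (78.6%), against 34.9% of the 9012 windows of all member genes and 33.9% of all 32851 windows. TTTGAA or TTCGAA was in 11 of the 28 (39.3%), against 12.6% of member windows and 17.2% of all windows. These are matches of letters in a window and do not show a bound site.

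The immediate early list had 34 windows from 27 genes, and CCAAT was in 14 of them (41.2%). The AP-1 element TGANTCA was in 2 (5.88%) and the cyclic AMP response element TGACGTCA in 3 (8.82%). The shares of TGANTCA and TGACGTCA thus rest on few windows. Over the windows of all member genes these shares were 34.9%, 4.17% and 2.59%. The kappaB element was in 23.5% of the immediate early windows and in 22.1% of the member windows.

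Some mitotic genes were more abundant. Mki67, the gene of the proliferation antigen Ki-67, was at 63.2, 22.7, 36.3 and 16.8 FPKM, with a ratio difference of -0.37 (counting interval -0.52 to -0.22). Top2a, the topoisomerase that untangles chromosomes, was at 52.6, 18.6, 34.5 and 14.5 FPKM, with -0.26 (-0.42 to -0.10), and Birc5, the survivin gene, at 25, 6.93, 14.8 and 5.28 FPKM, with -0.38 (-0.76 to -0.005). In these 3 genes, in contrast to Cdk1, the DNAM-1- value was also lower in AML than in normal spleen. The mitotic exit factor gene Cdc20 lay on the other side, at 12.3, 5.67, 10.3 and 3.43 FPKM and 0.35 (-0.13 to 0.82), as did Mad2l1 of the spindle checkpoint, at 0.03.

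**Figure D4:**
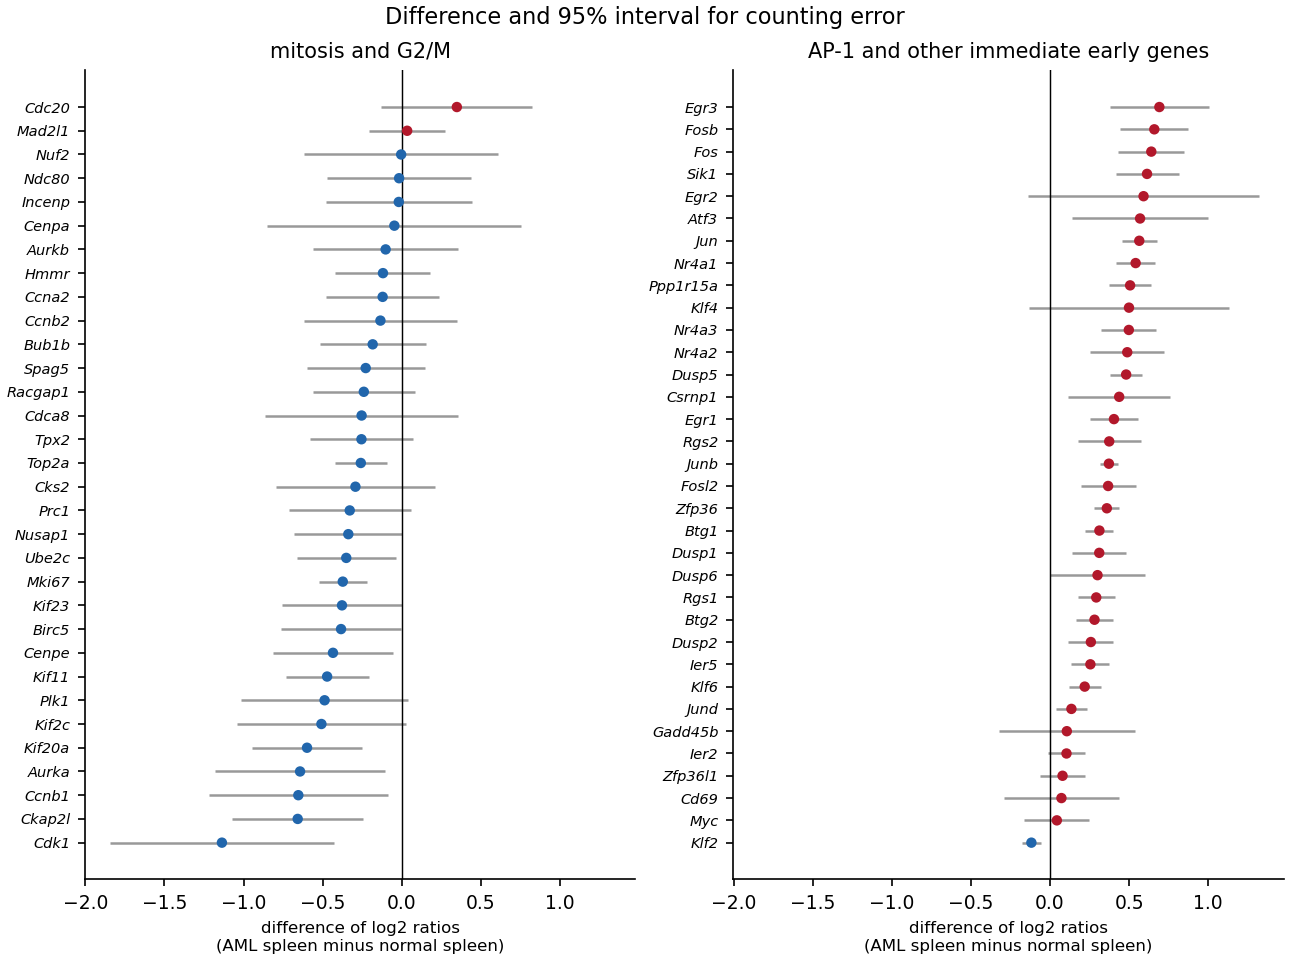
Ratio difference (AML spleen minus normal spleen, log2 scale) of each gene of the mitosis list and of the immediate early list, with bars for the 95% counting interval, which covers counting error only. In the mitosis list 30 of 32 points lie below 0 and in the immediate early list 33 of 34 lie above it.

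Genes of DNA replication and S phase were placed below 0 to a smaller extent, with 26 of 32 members below 0, 6 above and a median of -0.14. At -0.5 or less was 1 gene of the 32, where 1.00% of all genes lay. That gene was Clspn, which encodes the checkpoint mediator claspin, at 9.64, 3.09, 4.95 and 2.31 FPKM and -0.53, with a counting interval that included 0 (-1.30 to 0.23). Lig1, the replicative DNA ligase gene, was at 28.6, 15.2, 18.2 and 13.5 FPKM, with -0.47 (-0.76 to -0.17), and Pola1, the catalytic subunit of the primase-associated polymerase, had -0.43. The helicase subunit genes Mcm2, Mcm3, Mcm4, Mcm5, Mcm6 and Mcm7 had ratio differences from -0.37 (Mcm7) to -0.06 (Mcm5), and Pcna, the sliding clamp gene, -0.11. Tyms, the thymidylate synthase gene, was the highest, at 0.37 (-0.12 to 0.87). The histone and chromatin list had 6 members above the floor of 18 listed, with a median of -0.10. Hmgb2, an abundant chromatin protein gene of dividing cells, was at 190, 88.8, 130 and 78.4 FPKM, with -0.36 (-0.51 to -0.22).

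**Figure D5:**
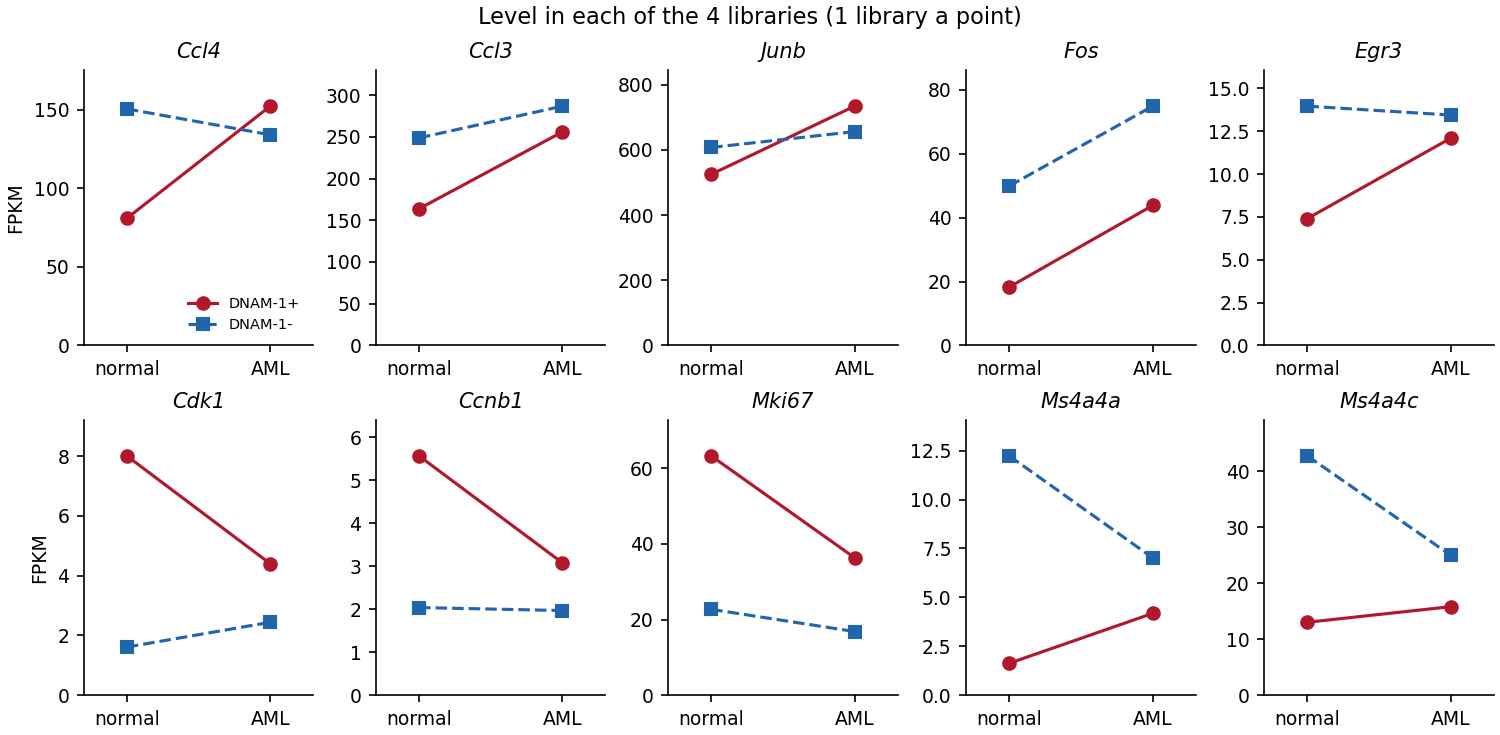
FPKM of 10 genes in normal and AML spleen, with circles for DNAM-1+ and squares for DNAM-1- libraries, 1 library a point and axes that start at 0. Ccl4 has its lowest value and Cdk1 its highest value in normal DNAM-1+ cells, and the 2 lines of Ccl4 and of Junb cross.

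The highest ratio difference of all was that of Ms4a4a (666907), a membrane protein gene of the MS4A family known from macrophages and monocytes. It was at 1.63, 12.2, 4.18 and 7.02 FPKM, highest in DNAM-1- cells of normal spleen, with a ratio difference of 1.70 (counting interval 0.91 to 2.49). Its family members Ms4a6d, at 1.21, 9.81, 1.49 and 4.29 FPKM, and Ms4a4c, at 13, 42.7, 15.8 and 25 FPKM, had ratio differences of 1.2 and 1.01. Of 7 members of the family above the floor, a grouping made after the values were seen, 6 lay above 0. The B cell gene Ms4a1 lay at -0.08, and Ms4a4b, at 544, 411, 552 and 383 FPKM the most abundant of them, at 0.12. Close relatives in the family can share reads, so single values are uncertain.

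Other genes known from monocytes and macrophages lay above 0 as well. Of the 12 monocyte markers 10 lay above 0, with a median of 0.30, and of 8 macrophage markers above the floor 7 did, with a median of 0.38. Plac8, a gene of monocytes and other leukocytes, was at 25.5, 138, 34.2 and 92.2 FPKM, with a ratio difference of 0.98 (counting interval 0.66 to 1.3). The lysozyme gene Lyz1 was at 0.76, 9.16, 2.06 and 7.64 FPKM, with 1.03, and the abundant copy Lyz2 at 29.3, 239, 41.9 and 254 FPKM, with 0.42 (0.21 to 0.62). Lyz1 and Lyz2 are near-identical, so reads may be divided between them. The complement genes C1qa, C1qb and C1qc had ratio differences of 0.79, 0.45 and 0.62, and Fabp4, of macrophages and fat cells, was the macrophage marker below 0, at 1.22, 17.4, 0.53 and 20.1 FPKM and -0.73. The markers of non-classical monocytes had a median of 0.11, with 8 of 11 above 0, among them Nr4a1, which was also on the immediate early list.

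All 10 MHC class II presentation genes lay above 0, beside 52.0% of all genes, with a median of 0.28. The counting interval missed 0 in 5 of the 10, beside 14.4% of all genes. H2-Aa, the alpha chain gene of I-A, was at 84.1, 474, 127 and 454 FPKM, with a ratio difference of 0.66 (counting interval 0.51 to 0.80). Its partner chain H2-Ab1 was at 119, 556, 149.8 and 542 FPKM, with 0.36, and Cd74, the invariant chain gene, at 328, 1458, 391 and 1385 FPKM, with 0.33. In these 3 genes the DNAM-1+ value was higher and the DNAM-1- value lower in AML than in normal spleen. The B cell markers, of which 12 of 13 lay above 0, had a median of 0.19, and their summed level had a ratio difference of 0.21. Cd79a, a chain of the B cell receptor, was at 73.0, 395, 88.0 and 399.7 FPKM, with 0.25. How much of the MHC class II result came with the RNA of B cells or of myeloid cells was not tested. Jchain, the joining chain gene of plasma cells, went the other way, at 12.6, 103, 18.2 and 206 FPKM and -0.51 (-0.80 to -0.21). The plasma cell markers above the floor were divided, with 2 above 0 and 3 below. Those above 0 were Mzb1, at 0.56 (-0.18 to 1.3), and Irf4, at 0.28 (0.285).

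NK lineage genes lay mostly below 0 by small amounts. Of the 37 NK lineage and activating receptor genes, all of which passed the floor, 27 lay below 0 and 10 above, with a median of -0.08 and none past 0.5 in either direction. Klrb1a, an NK receptor gene of the NKR-P1 family, was lowest at -0.34, and Itga2, the CD49b gene, was at 63.5, 55.9, 65.1 and 67.3 FPKM, with -0.23 (counting interval -0.35 to -0.11). Eomes, a master factor of NK cells, had -0.19 (-0.26 to -0.11). Hcst, which encodes the adaptor DAP10 of NKG2D, was the highest, at 64.2, 54.3, 93.8 and 58.2 FPKM and 0.44 (0.06 to 0.82). Il2rb, the receptor chain for IL-2 and IL-15, was at 784, 659.6, 833 and 643 FPKM, with 0.12 (0.08 to 0.16).

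Of 10 Ly49 receptor genes above the floor 9 lay below 0, with a median of -0.15. Klra5 was at 16.1, 9.51, 8.10 and 9.99 FPKM, so that its DNAM-1+ value was the higher of the pair in normal spleen and the lower in AML spleen, with a ratio difference of -0.98 (counting interval -1.48 to -0.47). Klra9, at 284, 218, 350.4 and 313 FPKM, had -0.22. Klra2, known from myeloid cells, lay above 0, at 0.54. Ly49 genes are near-identical and can share reads, so these values are uncertain, and the sum over 11 Klra genes had a ratio difference of -0.08.

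Granzymes, perforin and death ligands were divided, with 9 of 15 above 0 and a median of 0.04. Gzma was at 3885, 3210, 3947 and 4072 FPKM, with a ratio difference of -0.32 (counting interval -0.35 to -0.29) and its DNAM-1- value highest in AML spleen. Gzmb had -0.18 and Prf1, the perforin gene, -0.04. Nkg7, a granule protein gene, was at 464, 600.3, 663 and 665 FPKM, lowest in DNAM-1+ cells of normal spleen, with 0.36 (0.27 to 0.45). Among checkpoint and exhaustion genes, with 10 of 16 above 0 and a median of 0.14 that turned to -0.0236 at a floor of 20 FPKM, Lag3 was at 8.26, 5.02, 12.8 and 5.14 FPKM, with 0.54 (0.10 to 0.99), and Tigit, whose product competes with DNAM-1 for ligands, had -0.09. The chemokine and S1P receptors had 13 of 18 genes above the floor, 10 above 0 and 3 below, with a median of 0.15. At 0.5 or more were 3 of them (Ccr7, Ccr6 and Cxcr3), where 2.22% of all genes lay. Ccr6, known also from B cells, was at 1.71, 10.7, 2.98 and 10.5 FPKM, with 0.58 (-0.06 to 1.21). Cxcr3, a chemokine receptor gene, was at 41.0, 18.5, 45.0 and 13.8 FPKM, with 0.53 (0.25 to 0.82). Genes of early NK cells and ILC1 had a median of 0.15, with 12 of 20 above 0 and 8 below. They ranged from Itga1, at -0.49, and Lef1, at -0.41, to Podnl1, at 0.43, and the receptor genes Cxcr3 and Ccr6 above, and Il7r was at -0.01.

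Medians of 5 further lists lay between -0.02 and 0.08. Interferon-stimulated genes had a median of 0.07 (20 of 35 above 0), interferon-inducible GTPases 0.02 (9 of 15), glycolysis genes 0.03 (9 of 15), respiratory chain subunits 0.08 (23 of 35) and cytosolic ribosomal proteins -0.02 (18 of 40). Heat shock genes had a median of 0.13, with 13 of 20 above 0. Among them Hspa1b, an inducible HSP70 gene, was at 35.3, 119, 3.97 and 10.3 FPKM, far higher in the normal than in the AML libraries, with a ratio difference of 0.54, and its near-identical copy Hspa1a was at 14.4, 58.7, 1.67 and 7.87 FPKM, with 0.22.

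The other genes past 1 or -1 belonged to no list except Tgtp1, and most were low. Slirp, a mitochondrial RNA-binding protein gene, was at 11.5, 18.1, 15.8 and 10.1 FPKM, with a ratio difference of 1.21 (counting interval 0.56 to 1.86). Pradc1 was at 3.90, 5, 6.53 and 2.99 FPKM, with 1.21, Rhox8 at 2.69, 5.37, 3.59 and 2.69 FPKM, with 1.10, and Lenep at 4.56, 7.36, 7.01 and 4.86 FPKM, with 1.04. In all 4 the DNAM-1+ value was the lower of the pair in normal spleen and the higher in AML spleen. Tgtp1, a GTPase gene induced by interferon, was at 5.21, 1.34, 6.12 and 0.27 FPKM, with 1.08, but its near-identical copy Tgtp2 had 0.14 and the sum of both 0.31. Apol7b was at 7.11, 0.63 and 9.38 FPKM and was not listed in DNAM-1- cells of AML spleen, where it was set to 0. Its ratio difference of 1.06 therefore rests on the pseudocount, as does that of Tgtp1.

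On the negative side, Gm12657, a predicted gene, had the lowest ratio difference of all, at 7.61, 1.93, 3.23 and 3.35 FPKM and -1.60. Amer2, which encodes a regulator of WNT signalling, was at 13.1 and 4.18 FPKM in normal spleen and was not listed in either AML library, where it was set to 0, so its ratio difference of -1.44 is its DNAM-1 ratio in normal spleen with the sign turned. Gtpbp8, a GTP-binding protein gene, was at 5.72, 3.97, 3 and 5.68 FPKM, with -1.18 (counting interval -1.99 to -0.36), and Fam174c at 7.98, 4.86, 6.15 and 8.38 FPKM, with -1.01. In both, the DNAM-1+ value was the higher of the pair in normal spleen and the lower in AML spleen. Next to the threshold, Lyz1 and Ms4a4c lay just inside 1, with Ifi211 (0.999) and Ly6i (0.994) just outside, and Cdk1 and Fam174c lay inside -1, with Klra5 (-0.98) and Gm2026 (-0.90) outside.

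Among genes at 20 FPKM or more in all 4 libraries, Ccl4 and Plac8 were followed by Oaz1, Mrpl4, H2-Aa, Cpne8, Zfp488 and Dynlt1c. Oaz1, the antizyme gene that limits polyamine synthesis, was at 47.9, 72.9, 90.9 and 78.4 FPKM, with a ratio difference of 0.81 (counting interval 0.54 to 1.08). Mrpl4, a mitochondrial ribosomal protein gene, was at 25.7, 37.6, 41.4 and 34.4 FPKM, with 0.79 (0.44 to 1.146). Cpne8, a copine gene, had 0.65 and Zfp488, a zinc finger gene, 0.63. Like Ccl4, these 4 genes were lowest in normal DNAM-1+ cells and had the higher value of the AML pair in DNAM-1+ cells. Dynlt1c, a dynein light chain gene, had 0.62, but its near-identical copy Dynlt1b had -0.75, and the sum of 4 copies had 0.09.

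Below Klra5 in size, the named genes of the negative side were Timm8b, Tmem254c, Tcea2, Phpt1, Cdca3 and Tmsb15b1, at ratio differences from -0.89 to -0.77. Timm8b, a gene of mitochondrial protein import, was at 20.7, 14.4, 15 and 20.1 FPKM, with -0.89 (counting interval -1.51 to -0.27). Cdca3, a cell division gene that was not on the mitosis list, was at 22.8, 6.25, 12.1 and 5.89 FPKM, with -0.79 (-1.44 to -0.14). As in most of the mitosis list, its highest value was in normal DNAM-1+ cells and its lowest in DNAM-1- cells of AML spleen. For Tmsb15b1 the counting interval, -1.89 to 0.35, included 0.

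Among genes at 20 FPKM or more in all 4 libraries, the lowest ratio differences were smaller in size than the highest. They were -0.66 for Bola3, -0.63 for Anapc13, -0.59 for Utp3, -0.57 for Pmf1, -0.52 for Psme2b, -0.51 for Slc25a4, -0.48 for Cstb and -0.46 (-0.455) for Srp19. Bola3, needed for iron-sulphur cluster proteins, was at 38.9, 28.0, 28.7 and 33.1 FPKM, and Anapc13, a subunit of the anaphase-promoting complex, at 60.4, 50.3, 49.4 and 64.0 FPKM. In both genes the DNAM-1+ value was the higher of the pair in normal spleen and the lower in AML spleen. Pmf1, a kinetochore gene, was at 42.0, 27.5, 31.0 and 30.6 FPKM, and Slc25a4, the ADP/ATP carrier gene, at 51.0, 31.0, 37.6 and 32.8 FPKM. These 2 genes had their highest value in DNAM-1+ cells of normal spleen.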

How the data were processed

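FPKM values were deposited by the authors for each of the 4 libraries, per the file headers, with genes given by NCBI Gene number. Bowtie2 2.2.5 and RSEM are the tools listed in the submitters' processing notes. The genome build, the annotation and the use of strand are not given in the sources used here. Of 17723 gene numbers, 17668 matched a symbol in the RefSeq table of GRCm38.p6, which served for names and biotypes, and 55 did not. Depth was estimated from the FPKM steps of microRNA genes, with the smallest step taken as 1 read. Of 91 to 101 values a library, 84.2% to 90.1% lay within 0.1 step of whole reads. The 95% counting intervals used these depths and median GENCODE M21 transcript lengths, found for 8620 of 8658 genes.

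The ratio difference was computed with a pseudocount of 1 FPKM (Python 3.11.15, pandas 2.3.3, numpy 2.4.6). The formula was run on simulated counts with known changes, put only into genes with a mean of 20 FPKM or more. That run checks the arithmetic and says nothing of genes at low levels or of the spread between mice. Genes named are Cd226, Ccl4, Cdk1, Ncr1 and Klrb1c, the 12 highest and 12 lowest without predicted names, the 8 highest and 8 lowest at 20 FPKM or more in all 4 libraries, up to 4 genes a list and those next to the threshold. Others, Gm12657 among them, were chosen after their values were seen. The members, the 20 pathway lists and the 12 cell type lists were chosen with earlier results of these data known. Promoter windows came from RefSeq (GRCm38.p6) and were matched by gene.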

Additional observations from a re-analysis of the deposited data

Results flagged for a closer look

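In 8 genes past 1 or -1 the DNAM-1 ratio had opposite signs in normal and AML spleen. The difference between the spleens was not tested, since each value rests on 1 library. The ratio difference was 1.07 for Ccl4, 1.21 for Slirp (1.212), 1.21 for Pradc1 (1.208), 1.10 for Rhox8 and 1.04 for Lenep, with DNAM-1+ the lower of the pair in normal and the higher in AML spleen. It was -1.60 for Gm12657, -1.18 for Gtpbp8 and -1.01 for Fam174c, with DNAM-1+ the higher of the pair in normal and the lower in AML spleen. Of the 8 genes, Ccl4 alone was above 20 FPKM in all 4 libraries.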

How the results depend on the processing

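The counts at 1 or more and at -1 or less, 12 and 5, depended on the pseudocount and the floor. They were 25 and 10 with a pseudocount of 0.1, 1 and 0 with a pseudocount of 5, 36 and 31 with a floor of 1 FPKM, 40 and 35 with no floor, 2 and 0 with a floor of 20 FPKM, 4 and 0 with 5 FPKM in every library, and 60 and 39 with all gene types. Upper quartile scaling gave 13 and 5, quantile normalisation 9 and 5, and centring 12 and 5. List medians were recomputed under the pseudocounts, the floors of 1 and 20 FPKM, the floor of 5 FPKM in every library and the 3 scalings. Those of the 20 pathway lists kept their sign except that of checkpoint and exhaustion genes, which was -0.0236 with a floor of 20 FPKM. The small medians of T cell, neutrophil, dendritic cell, erythroid and leukaemia markers changed sign under at least 1 alternative. The chemokine median was 0.22 with a floor of 1 FPKM, and that of non-classical monocyte markers 0.29 with 5 FPKM in every library. The immediate early median ranged from 0.32 to 0.38 and the mitosis median from -0.31 to -0.26. The cause of these shifts was not tested. Apol7b was at 3.26 with a pseudocount of 0.1 and at 0.42 with 5, and Tgtp1 at 2.19 with 0.1 and 0.39 with 5. With a pseudocount of 5, Ms4a4a was at 0.99, Ms4a6d at 0.74, Pradc1 at 0.70, Lenep at 0.66, Rhox8 at 0.59, Lyz1 at 0.46, Cdk1 at -0.64, Fam174c at -0.66, Gtpbp8 at -0.67 and Ccl4 at 1.03, and Amer2 was at -0.98 and Hspa1b at 0.85, and Itga1 ranged from -0.77 with 0.1 to -0.19 with 5. Quantile normalisation gave -0.12 for Gzma and 0.18 for Cd74, in place of -0.32 and 0.33. Low counts limit single genes: the median counting interval reached 0.292 to either side. No paired analysis was possible because each group has 1 library and the labels identify no mouse, and for the same reason no library could be left out.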

Other observations

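A few groups of related genes were looked at after their values were seen, and no test was made. The high mobility group, condensin and kinetochore groups were picked gene by gene and need not hold every member. The high mobility group genes picked, which encode chromatin proteins, lay below 0 (6 of 6). Their summed FPKM of 667, 430, 487 and 412 (order as above) gave a ratio difference of -0.39. The 5 structural maintenance and condensin genes picked (Smc2, Smc4, Ncapd2, Ncapg and Ncaph), which compact chromosomes, lay below 0, with a summed value of -0.28. In the kinetochore group of Spc and Nuf genes, Spc25 was at -0.63 and Spc24, Ndc80 and Nuf2 were at -0.06, -0.02 and -0.004, and all 4 counting intervals included 0. Of 11 centromere protein genes (Cenp), 7 lay below 0 and 4 above, and their sum was at -0.02. Of 20 kinesin genes, motors along microtubules, 15 lay below 0, among them Kifc1, at 11, 3.57, 5.56 and 2.97 FPKM and -0.67.

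The interferon-induced membrane genes Ifitm3 and Ifitm2, which restrict virus entry, were high in DNAM-1- cells. Ifitm3 was at 14.3, 174, 13.8 and 88.8 FPKM, with a ratio difference of 0.92 (counting interval 0.48 to 1.35), and its paralog Ifitm2 at 7.64, 85.5, 11.4 and 68.8 FPKM, with 0.83. For Ifitm3 the DNAM-1+ values were close together in the 2 spleens and the DNAM-1- value was lower in AML spleen. The paralogs can share reads, and the sum of 4 Ifitm genes had 0.85. Of 10 genes of the Ifi200 family of DNA sensors, 8 lay above 0, but the median was 0.04 (0.035) and most of the 10 were near 0, with Ifi211 at 0.999 and Ifi207 at 0.94 apart from the rest. The macrophage and monocyte marker sums, at 0.46 and 0.22, stood on the same side, as did the medians of their markers above the floor, at 0.38 and 0.30. The part of macrophage and monocyte RNA in these values was not tested.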
